A study of Mus musculus with 30 samples.

Results

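CD8 T cells of Furin knockout mice were activated for 3 days with or without TGFB1, and their RNA was sequenced. The response was read from the 10 libraries whose labels give the genotype Furin KO and either no added cytokine or TGFB1, out of 30 libraries in the series. Each condition held 5 libraries, and all genes were considered. The mice were C57BL/6 and 8 weeks old. Naive CD8-positive cells had been isolated magnetically from spleen and lymph nodes and cultured without serum, with plate-bound anti-CD3 and anti-CD28 at 5 µg/ml each. TGFB1 was given at 0.5 ng/ml. The other 20 libraries were KO cells with IL12 and wild-type (WT) cells in all 3 conditions; the WT cells without cytokine and with TGFB1 are used here only to test whether the responses differed. The labels do not say how Furin was inactivated, in which cells or in which exons, so KO stands for the libraries labelled so. Numbers in the titles (63, 68, 70, 73 and 74 in KO) each carried 1 genotype and 1 sex and are treated as animals; 63 was male and the other 4 were female. Whether the cultures of an animal were set up separately is not stated, so p-values measure the spread between these libraries.

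TGFB1 is a cytokine that is made as an inactive precursor and signals, once active, through a pair of receptor kinases to SMAD2 and SMAD3, which enter the nucleus with SMAD4. The pathway switches on its own brakes, among them SMAD7, SKI and SKIL. In CD8 T cells TGFB1 is known to restrain killing functions and to induce CD103, the integrin that holds cells in epithelia, and together with other signals it directs T cells to regulatory or interleukin-17-producing states. Furin is a proprotein convertase that cuts precursors, including that of TGFB1, into their active form. Here TGFB1 was added to the medium, so the comparison asks how cells labelled KO answered cytokine from outside.

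The 10 libraries held 7522984 to 11292997 counts, and levels are given as CPM, counts divided by library size and scaled by TMM factors. Values per library follow the order of animals 63, 68, 70, 73 and 74. Means are given as the mean of 5 without cytokine to the mean of 5 with TGFB1, and sizes after "rose by" or "fell by" are log2 fold changes with TGFB1. The first principal component of the 10 libraries held 53.3% of their variance and separated the conditions, at -36.6 to -26.1 without cytokine and 26 to 37.6 with TGFB1. The second held 15.7% and placed animals 63 and 73 above 68 and 74 in both conditions. Ribosomal protein genes took 9.46% to 9.85% of counts without cytokine and 9.88% to 11.1% with TGFB1, so the groups did not overlap, and mitochondrial transcripts took 0.656% to 1.34% and 0.68% to 0.996%. The 11 markers of CD8 T cells summed to 4252 to 4519.5 CPM without cytokine and 4012 to 5113 CPM with TGFB1, whereas Cd4 averaged 0.284 to 0.718 CPM. Of the 7 erythroid and platelet markers none was measured well enough to test, and 4 had no count in any of the 10 libraries; 3 of 8 B cell, 1 of 9 macrophage and 2 of 7 dendritic cell markers had none either. The sums of those lists over the 10 libraries ran from 6.09 to 13.8 CPM for B cells, 2.8 to 8.63 CPM for macrophages and 19.8 to 69 CPM for dendritic cells.

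Signal of other cell types moved with the cytokine. The 4 measured markers of gamma-delta T cells all fell by edgeR (1 of 4 by limma-voom), and their list of 5 summed to 6.49 to 17.5 CPM without cytokine and 4.74 to 6.69 CPM with TGFB1. The 6 NK cell markers summed to 6.69 to 12.9 CPM and 0.831 to 1.83 CPM; most of that was Eomes, which CD8 cells express too. Ncr1, Klrb1c and Klra4 averaged 0.156, 0.151 and 0.24 CPM without cytokine and had no count with TGFB1, and Klra8 had none in any library. A list of 12 genes of basophils and mast cells, put together after their values were seen, summed to 59.1 to 116 CPM without cytokine and 9.58 to 28.5 CPM with TGFB1. The basophil protease Mcpt8 stood at 18.9, 17.7, 10.2, 11 and 8.09 CPM without cytokine and 2.13, 4.21, 1.97, 2.37 and 1.57 CPM with TGFB1. Every library with TGFB1 lay below every library without it for the sum of the 12 genes. Its members were chosen with their values known, so this separation is no test of a fall. The 11 genes of the list that were tested had a median log2 fold change of -2.38 in KO and 0.01 in WT. The difference between genotypes was called for 0 of these 11, and for 9 with the animal as a block over all 30 libraries. In bulk RNA fewer cells of a type and less RNA per cell cannot be told apart. The part of these cells in the falls described below was not tested. Kit, a receptor of mast cells and progenitors, went the other way, from 0.992 to 13.2 CPM. Kit is also in the separate list of 7 neutrophil and mast cell markers, which summed to 9.18 to 23 CPM without cytokine and 13.4 to 19.1 CPM with TGFB1. With TGFB1 most of that sum was Kit, so the sum does not show how the other members moved. Of 4 measured members 1 rose and 2 fell, both of these by at least 2-fold. Of the 7 stromal and endothelial markers Epcam and Pecam1, which lymphocytes can express, fell from 47.6 to 32.4 CPM and from 48.2 to 18.7 CPM, and the collagens Col1a1, Col1a2 and Col3a1 stayed at or below 0.239 CPM on average.

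**Figure D1:**
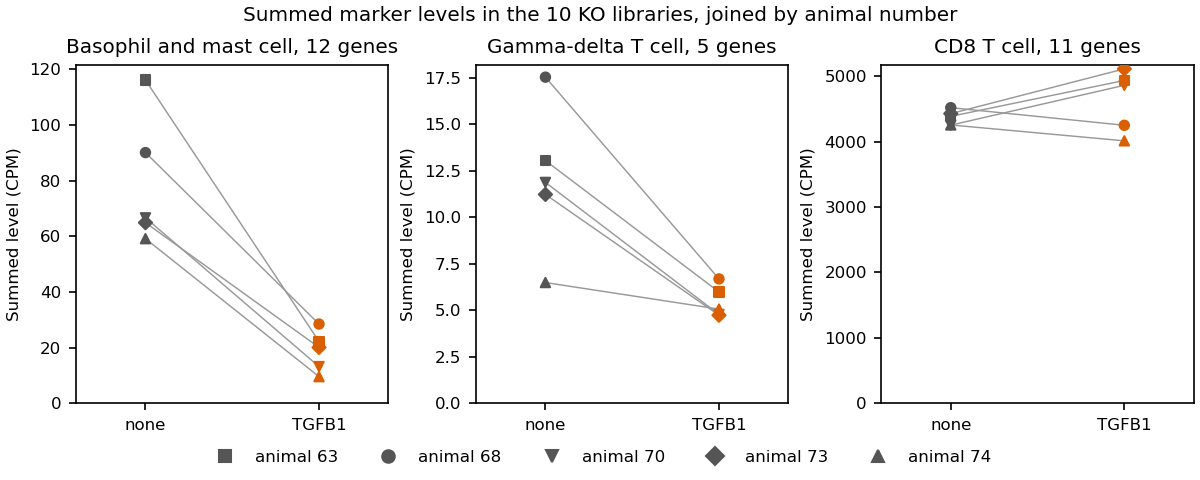
Summed levels (CPM, linear axis from 0) of marker genes in the 10 KO libraries without cytokine and with TGFB1; lines join libraries of 1 animal. Basophil and mast cell genes, a list put together after their values were seen, fell from 59.1 to 116 CPM to at most 28.5 CPM. CD8 markers stayed between 4012 and 5113 CPM.

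With TGFB1, KO cells lowered granzyme B, perforin and other killing genes and raised genes of the aryl hydrocarbon receptor pathway and of regulatory and interleukin-17 programmes, while medians over genes of DNA replication and mitosis were -0.03 and 0 on the log2 scale. Of 11718 genes tested, 1586 rose and 1289 fell (edgeR quasi-likelihood test, Benjamini-Hochberg adjusted p under 0.05; such genes are called). That is 13.5% and 11% of genes, 24.5% together, and the shares against which the gene groups below are read. Changes of at least 2-fold were called for 442 rises and 288 falls. In 1987 genes, 17.0% of those tested, the call came with levels that did not overlap between the groups of 5. The median log2 fold change of all genes tested was 0.007.

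**Figure D2:**
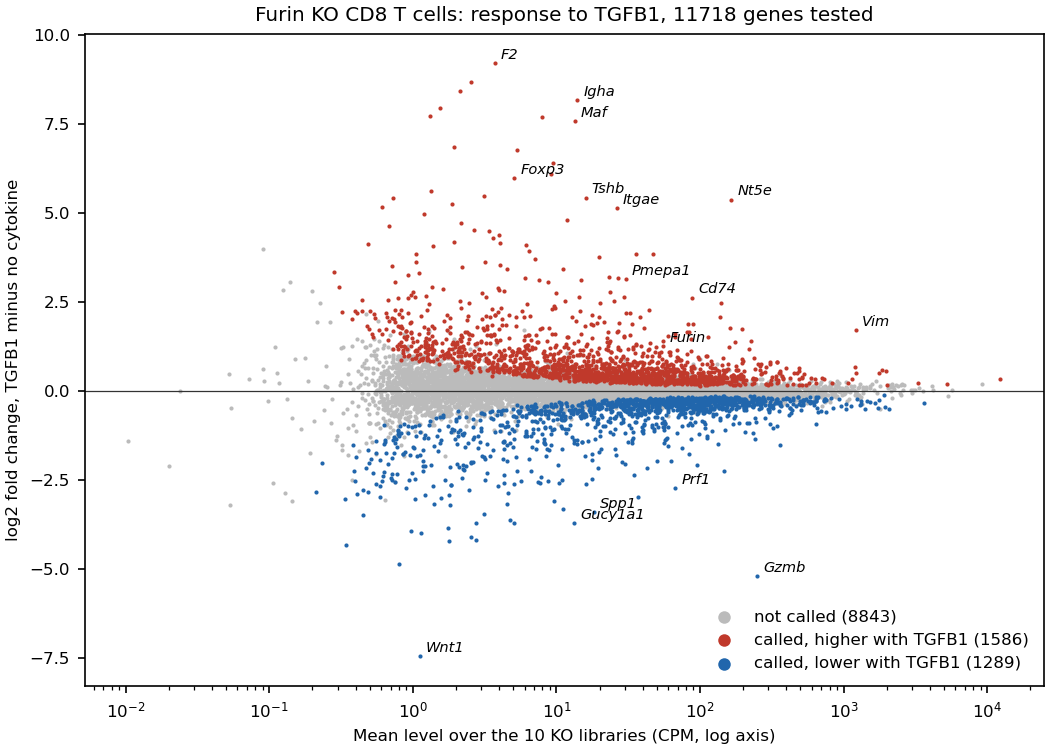
Log2 fold change (TGFB1 minus no cytokine) of each of 11718 genes in KO cells against its mean level (CPM, log axis); red and blue points are genes called higher or lower. The 1586 rises and 1289 falls span all levels, and for genes with no count in one group (F2, Wnt1) the plotted value depends on the small count added by the fit.

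Receptors and feedback regulators of the TGFB pathway itself were induced. Of 27 measured genes of TGFB signalling, 15 rose and 3 fell, with a median log2 fold change of 0.42. Pmepa1, an inhibitor of SMAD activation (ENSMUSG00000038400, GRCm38 chromosome 2, 173224458 to 173276533), stood at 5.81, 5.22, 7.52, 4.75 and 7.59 CPM without cytokine and 40, 53.3, 65.6, 54.9 and 59.6 CPM with TGFB1. All libraries with TGFB1 lay above all without it, and the log2 change was 3.15 ± 0.20 SE, adjusted p = 1.63e-12. Skil, a repressor bound to SMADs (ENSMUSG00000027660, GRCm38 chromosome 3, 31095058 to 31122577), stood at 29.7, 32.2, 40.6, 33.6 and 36.7 CPM without cytokine and 87.4, 87.8, 119, 102 and 98.4 CPM with TGFB1 and rose by 1.52 ± 0.11 SE (adjusted p = 2.68e-11). Its groups did not overlap either. Its relative Ski rose by 0.77, and the inhibitory SMAD gene Smad7, at 6.64 to 14.5 CPM, by 1.13 ± 0.25 SE (adjusted p = 0.0013). The type I receptor Tgfbr1 rose by 1.52 ± 0.15 SE (adjusted p = 1.28e-08) and the activin receptor Acvr2a by 2.21. Tgfbr2, the other TGFB receptor chain, averaged 41 to 54.3 CPM and was not called (0.40 ± 0.19 SE, adjusted p = 0.131); it was with the animal as a block over the 10 KO libraries (adjusted p = 0.0284). Not all members rose: Rgcc, a regulator of the cell cycle, fell by 1.37 ± 0.13 SE (adjusted p = 1.02e-08).

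SMAD proteins recognise the letters CAGAC, or GTCTG on the other strand. The 250 bases before the start of each gene were searched for these letters in the RefSeq promoter table (GRCm38.p6), which held 28 of the 44 genes made up of the TGFB list and the 12 largest rises. At least 2 copies were found in 5 of the 28, and in 11.7% of all 32851 promoters. At least 1 copy was found in 15 of the 28, and in 42.2% of all. A gene counted when any of its windows held the copies, whereas the shares are over promoters. Among the 5, Eng, which encodes a TGFB co-receptor, rose by 0.73 ± 0.15 SE (adjusted p = 0.000508) and Smurf1, a ligase that marks SMADs and receptors for destruction, by 0.42. Tgif1, a SMAD corepressor, was at 23.3 to 24.5 CPM and Usp15, a deubiquitinase of the receptor complex, at 106 to 108 CPM, neither called, and Tgfbi was too low to test. Repeated copies stood both before genes that rose and before genes with no call. The windows of Eng and Smurf1 are printed because these are the called genes with repeated copies; the letters CAGAC and GTCTG are in capitals.
Eng (chr2:32646345-32646594, plus strand): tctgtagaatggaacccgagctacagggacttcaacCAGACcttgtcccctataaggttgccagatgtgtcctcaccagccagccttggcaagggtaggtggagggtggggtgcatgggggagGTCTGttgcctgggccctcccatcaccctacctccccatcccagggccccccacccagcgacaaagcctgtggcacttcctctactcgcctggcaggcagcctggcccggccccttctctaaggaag
Smurf1 (chr5:144965831-144966080, minus strand): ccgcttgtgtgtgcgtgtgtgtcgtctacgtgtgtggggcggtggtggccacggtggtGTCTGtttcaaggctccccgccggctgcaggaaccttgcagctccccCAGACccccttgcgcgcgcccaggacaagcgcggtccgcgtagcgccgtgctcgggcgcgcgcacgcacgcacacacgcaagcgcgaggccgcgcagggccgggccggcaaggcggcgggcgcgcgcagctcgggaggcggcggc

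Genes that activate TGFB or are processed by Furin moved less as a group. Of 19 measured, 6 rose and 2 fell, with a median of 0.12. Furin itself (ENSMUSG00000030530, GRCm38 chromosome 7, 80388585 to 80405436) stood at 32.5, 32.6, 32.6, 31.5 and 33.9 CPM without cytokine and 66, 72.3, 90.2, 79.3 and 81.9 CPM with TGFB1, and rose by 1.26 ± 0.30 SE (adjusted p = 0.00293) with groups fully apart. The deleted part is not given in the labels, so this level does not check the genotype. Tgfb1 was read at 244 to 245 CPM and not called (0.00 ± 0.08 SE, adjusted p = 0.979). Cpd, a carboxypeptidase that trims the ends furin leaves, rose by 2.08 ± 0.24 SE (adjusted p = 2.36e-07), from 44.6, 49.6, 63.1, 31.5 and 74 CPM to 159, 232, 261, 188 and 268 CPM. Nrros, which anchors latent TGFB on cells, fell by 1.02 ± 0.07 SE (adjusted p = 2.68e-11). Its levels of 61.2, 63.9, 61, 61.1 and 64.9 CPM dropped to 31.7, 33, 31.5, 28.9 and 29 CPM, with little spread in either group. The integrin chain Itgav, part of the receptors that release active TGFB, rose by 0.43.

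Several genes went from near silence to clear expression. In all, 32 called genes rose from a mean under 0.5 CPM to at least 2 CPM, and 14 fell the other way. F2, the gene of prothrombin (ENSMUSG00000027249, GRCm38 chromosome 2, 91625320 to 91636414), had no count in any of the 5 libraries without cytokine and stood at 6.52, 6.69, 4.88, 4.64 and 14.5 CPM with TGFB1, at least 121-fold higher when 3 counts over the group are taken as the floor (adjusted p = 2.90e-06 by edgeR). On the same footing Gap43, a growth cone protein, was at least 84.0-fold higher, the laminin chain gene Lamc3 at least 70.7-fold, the non-coding gene Gm30292 at least 50.1-fold and the chemokine receptor Ccr8 at least 43.1-fold. Pdpn, podoplanin, had 3 counts without cytokine and a ratio of 262 with an exact 95% interval of 89.4 to 1270. Floors and intervals cover counting error only. Igha, the constant region of IgA heavy chain (ENSMUSG00000095079, GRCm38 chromosome 12, 113254830 to 113260236), stood at 0.0894, 0.104, 0, 0.216 and 0 CPM without cytokine and 17.3, 10.4, 55.7, 31.4 and 24.1 CPM with TGFB1, 8.17 ± 0.66 SE, adjusted p = 3.56e-10. Of the other immunoglobulin constant genes measured, Ighm averaged 531 to 594 CPM, Ighd 5.68 to 9.03 CPM and Igkc 0.148 to 0.119 CPM, and none of these was called.

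The remaining large rises included Nat8l, an enzyme that makes N-acetylaspartate, at 0.24 to 18 CPM (6.10 ± 0.61 SE, adjusted p = 1.28e-08), and Cd5l, a secreted scavenger protein, at 0.119 to 6.17 CPM. Tshb, the gene of a thyrotropin chain (ENSMUSG00000027857, GRCm38 chromosome 3, 102775465 to 102782718), rose from 0.691 to 31.2 CPM (5.44 ± 0.48 SE, adjusted p = 1.42e-09). It lies within Tspan2, which is on the opposite strand and rose from 42.8 to 238 CPM (2.47); the strand setting of the counting is not given in the sources used here, so reads of the pair may not be told apart. Among the near-silent falls, Wnt1 went from 2.23, 2.82, 3.17, 0.54 and 2.4 CPM to no count in any library, at least 35.2-fold lower (adjusted p = 0.000122). Selp, the adhesion molecule P-selectin, fell from 4.87 to 0.255 CPM, Cavin3, a coat protein of caveolae, from 5.22 to 0.272 CPM, and Tenm4, a teneurin, from 2.16 to 0.124 CPM. Siglecf, a lectin of eosinophils and other myeloid cells, fell from 3.27 to 0.225 CPM together with the basophil and mast cell genes above.

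**Figure D3:**
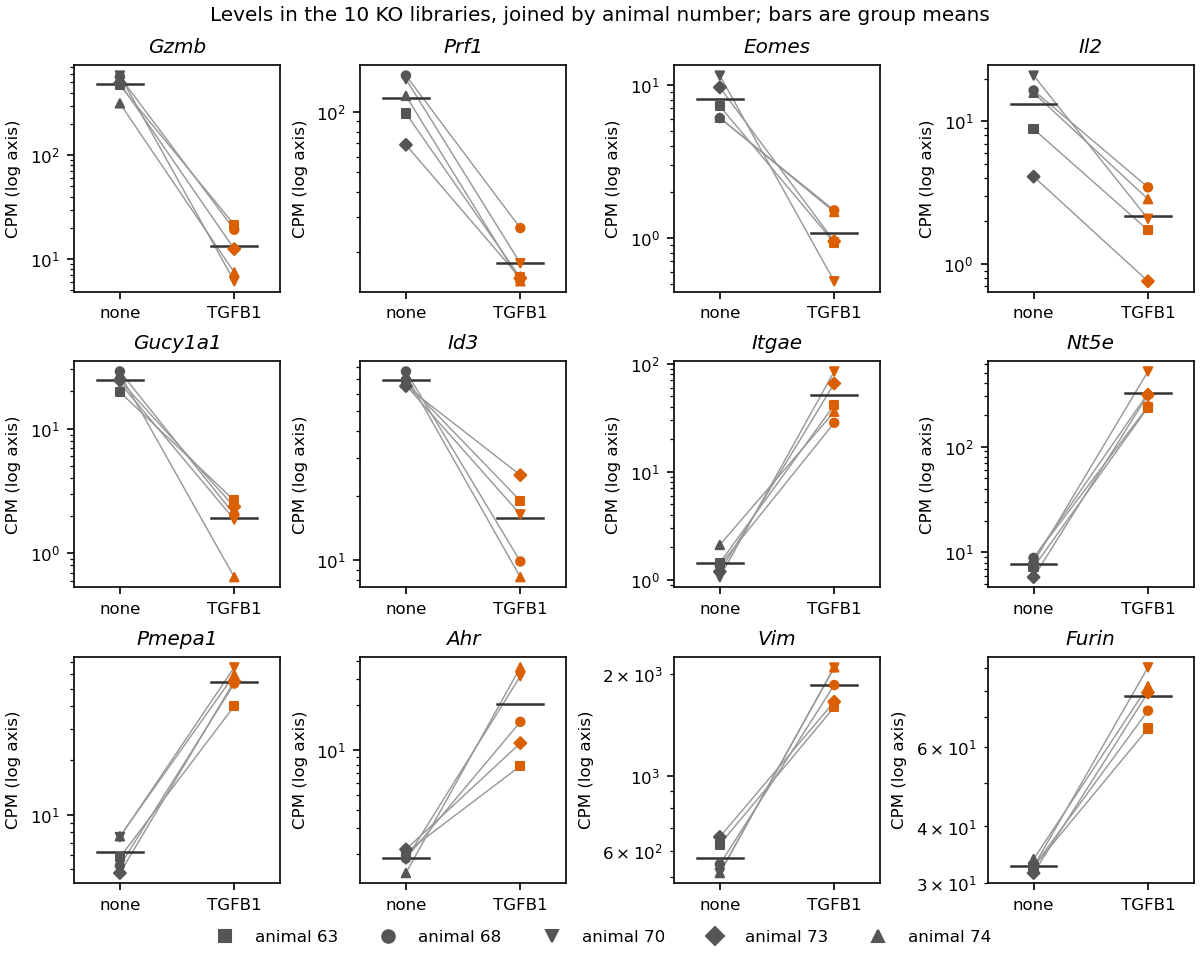
Levels (CPM, log axis) of 12 genes in the 10 KO libraries; lines join the libraries of 1 animal, bars are means of 5. In all 12 genes the groups do not overlap: Gzmb, Prf1, Eomes, Il2, Gucy1a1 and Id3 are lower in each animal with TGFB1, and Itgae, Nt5e, Pmepa1, Ahr, Vim and Furin are higher.

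Several genes of cell killing fell, granzyme B and perforin among them. Gzmb, the killing protease granzyme B (ENSMUSG00000015437, GRCm38 chromosome 14, 56258838 to 56262260), stood at 469, 566, 583, 491 and 315 CPM without cytokine and 21.4, 19.2, 6.13, 12.5 and 7.46 CPM with TGFB1. Its log2 fold change was -5.21 ± 0.51 SE, adjusted p = 1.05e-08. Prf1, the pore protein perforin (ENSMUSG00000037202, GRCm38 chromosome 10, 61297833 to 61304680), stood at 98.5, 152, 146, 68.7 and 121 CPM without cytokine and 14.9, 26.3, 17.6, 14.8 and 14.3 CPM with TGFB1, and fell by 2.74 ± 0.27 SE (adjusted p = 1.08e-08). In both genes every library with TGFB1 lay below the lowest without it. Of 17 measured cytotoxic genes 9 fell and 3 rose, against 11% and 13.5% of all genes, and their median was -0.94. The granzyme inhibitor Serpinb9 fell by 2.99 ± 0.30 SE (adjusted p = 1.25e-08), its relative Serpinb6b by 1.96, the adhesion receptor Crtam by 2.08 and Nkg7, needed for granule release, by 0.94. Granzyme C (Gzmc) averaged 2.39 to 0.359 CPM and fell by 2.68. Granzyme A (Gzma) averaged 1.29 to 0.215 CPM with groups that did not overlap, but was not called (adjusted p = 0.0701). With the animal as a block over all 30 libraries it was (adjusted p = 0.00401). Without a block it was called by DESeq2 (adjusted p = 0.0107) and by edgeR in females alone (adjusted p = 0.0468). Not all granule genes moved this way: Ctsw, cathepsin W, rose from 27.4 to 60.2 CPM, and Srgn, the granule proteoglycan, stood at 535 to 648 CPM with no call.

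Of 7 measured NK-type receptors 5 fell and 0 rose by edgeR, with a median of -1.33; 0 rose at an unadjusted p under 0.05, and 0 by DESeq2 or limma-voom. Klrk1, the activating receptor NKG2D, went from 83.2, 89.3, 92.1, 83.1 and 76.4 CPM to 33.4, 25.4, 39.5, 43.5 and 26.7 CPM and fell by 1.33 ± 0.15 SE (adjusted p = 1.33e-07). Cd160 fell by 1.43 and the inhibitory receptor Klrc1 by 1.28, both with overlapping groups. Their fall moved with that of the NK cell and gamma-delta T cell markers given above, and the part of such cells was not tested.

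Of 23 measured cytokines and chemokines, 9 fell and 3 rose, with a median of -0.72; with the animal as a block 15 fell and 3 rose. Il2, the growth factor of T cells (ENSMUSG00000027720, GRCm38 chromosome 3, 37120523 to 37125959), stood at 8.85, 16.5, 21, 4.1 and 15.9 CPM without cytokine and 1.73, 3.45, 2.08, 0.758 and 2.85 CPM with TGFB1 and fell by 2.59 ± 0.49 SE (adjusted p = 0.000252). Its groups were apart, and animal 73 was lowest in each. Spp1, osteopontin, fell by 3.42 ± 0.37 SE (adjusted p = 6.14e-08), Csf1, the macrophage growth factor, by 2.26 and the chemokine Ccl5 by 2.62. Ccl9, a chemokine of myeloid cells, fell from 20.3 to 2.01 CPM, again beside the fall of the basophil and mast cell genes. Interferon gamma did not follow: Ifng stood at 8.67, 20.2, 26.5, 8.64 and 10.9 CPM without cytokine and 9.97, 19.8, 17.9, 8.34 and 16.4 CPM with TGFB1, with wide overlap (-0.02 ± 0.49 SE, adjusted p = 0.981). Tnf averaged 18.2 to 13.2 CPM, lower in each of the 5 animals, and was not called without the block (adjusted p = 0.108) but was with it (adjusted p = 0.0445). The rises were Il17f, an interleukin-17 family cytokine, at 0.0894, 0.417, 0.264, 0 and 0.3 CPM without cytokine and 6.25, 18.8, 23.8, 8.05 and 37 CPM with it (6.41 ± 0.62 SE, adjusted p = 7.37e-09), Ccl20, the ligand of Ccr6, which had 1 count without cytokine and a ratio of 194 (exact 95% interval 34.4 to 7710), and Il1a, interleukin-1 alpha, at 0.436 to 7.67 CPM.

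Genes of tissue residency were divided. Of 30 measured 11 rose and 6 fell, with a median of 0.58. Itgae, the CD103 integrin chain (ENSMUSG00000005947, GRCm38 chromosome 11, 73090583 to 73147446), stood at 1.43, 1.36, 1.06, 1.19 and 2.1 CPM without cytokine and 41.5, 28.4, 84.8, 65.6 and 35.9 CPM with TGFB1, which is 5.14 ± 0.49 SE, adjusted p = 7.37e-09 on the log2 scale. The lowest library with TGFB1 was far above the highest without it. Its partner chain Itgb7 was already high, at 197 to 206 CPM, and not called. The gut-homing receptor Gpr15 rose from 0.337 to 6.91 CPM; it overlaps Cpox on the other strand, which rose from 53.6 to 110.1 CPM. The lipid receptor Gpr55 rose by 1.87 ± 0.21 SE (adjusted p = 8.89e-08) and Cd101, an inhibitory receptor of resident cells, by 1.56. Itga1, the CD49a chain of resident cells, had 6 counts without cytokine and 2 with TGFB1 and was not tested.

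Receptors that govern exit from tissues and entry into lymph nodes went both ways, with 4 of 13 measured members higher and 3 lower. Gpr183, an oxysterol receptor that positions lymphocytes, fell by 1.84 ± 0.33 SE (adjusted p = 0.000117) and the integrin chain Itga4 by 0.95. Ccr7, which draws cells into lymph nodes, rose by 0.66 ± 0.17 SE (adjusted p = 0.00603), with overlapping groups. S1pr1, the receptor for exit into blood, stood at 10.1, 6.37, 4.62, 10.1 and 5.49 CPM without cytokine and 28.3, 7.34, 28.4, 66.1 and 6.26 CPM with TGFB1. It was higher in each of the 5 animals but uneven, with 66.1 CPM in animal 73, and the call (1.88 ± 0.69 SE, adjusted p = 0.0464) was lost without that library (1.23, adjusted p = 0.231), with limma-voom and in 7 other fits that leave out 1 library. Klf2, which drives S1pr1, averaged 68.6 to 95.3 CPM and was not called (0.47 ± 0.35 SE, adjusted p = 0.352; 0.17 without the TGFB1 library of animal 73).

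Naive and memory genes were split evenly, with 8 of 26 measured members higher and 8 lower. Il7r, the interleukin-7 receptor chain, stood at 18.1, 14.6, 16.2, 28.9 and 13.7 CPM without cytokine and 67.2, 44.1, 53.6, 99.3 and 49.9 CPM with TGFB1 and rose by 1.78 ± 0.30 SE (adjusted p = 5.75e-05). The interleukin-6 receptor gene Il6ra rose by 2.18 ± 0.26 SE (adjusted p = 2.54e-07) and Igfbp4 by 1.66. Id3, an inhibitor of E proteins (ENSMUSG00000007872, GRCm38 chromosome 4, 136143497 to 136145755), stood at 67.7, 76.3, 65.7, 65.1 and 73.1 CPM without cytokine and 18.9, 9.82, 16.3, 24.9 and 8.29 CPM with TGFB1 and fell by 2.16 ± 0.26 SE (adjusted p = 4.14e-07). Slamf6 fell by 1.28 and Ly6c2 went from 46 to 11.7 CPM; it has close copies among which counting could split reads. Tcf7, the factor of naive and stem-like T cells, averaged 251 to 439 CPM and was higher in 5 of 5 animals, but its call (0.81 ± 0.30 SE, adjusted p = 0.0492) was lost in females alone (adjusted p = 0.0548), with limma-voom and in 7 fits that leave out 1 library, the highest adjusted p of these being 0.191 without the TGFB1 library of animal 73.

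Lineage factors changed in several directions at once. Of 21 measured genes of regulatory and interleukin-17-producing T cells, 11 rose and 2 fell, with a median of 1.17. Foxp3, which defines regulatory T cells (ENSMUSG00000039521, GRCm38 chromosome X, 7573644 to 7595245), stood at 0.179, 0, 0, 0.54 and 0 CPM without cytokine and 7.45, 8.41, 12.9, 5.31 and 16.2 CPM with TGFB1, 5.98 ± 0.56 SE, adjusted p = 5.71e-09. Maf, a factor of interleukin-10 and interleukin-17 programmes (ENSMUSG00000055435, GRCm38 chromosome 8, 115682942 to 115707794), stood at 0.0894, 0, 0.264, 0.108 and 0.2 CPM without cytokine and 16.1, 21.1, 45.4, 21.6 and 29.4 CPM with TGFB1, 7.59 ± 0.71 SE, adjusted p = 4.63e-09. The groups were apart in Foxp3 and in Maf, and the change of Foxp3 was 7.29 without the library of animal 73 without cytokine. Foxp3 overlaps Ccdc22 and other genes, so reads of these may not be told apart. Ccr6, a receptor of interleukin-17-producing cells, rose by 3.18 ± 0.36 SE (adjusted p = 1.19e-07). Il2ra, the high-affinity chain of the IL2 receptor, was at 845 to 988 CPM without a call (0.23 ± 0.24 SE, adjusted p = 0.535). Zbtb7b, the factor of CD4 cells, rose from 12.6 to 19.1 CPM, and Cd8a from 564 to 711 CPM.

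Among 30 measured effector transcription factors 9 rose and 6 fell, with a median of 0. Eomes, a T-box gene active in memory and effector cells (ENSMUSG00000032446, GRCm38 chromosome 9, 118478212 to 118486132), stood at 7.24, 6.05, 11.5, 9.61 and 6.09 CPM without cytokine and 0.931, 1.51, 0.52, 0.947 and 1.47 CPM with TGFB1, and fell by 2.87 ± 0.40 SE (adjusted p = 3.17e-06). Tbx21, the related factor T-bet, was at 38.9 to 33.4 CPM and not called (-0.22 ± 0.19 SE, adjusted p = 0.438). Stat4, which relays IL12, fell by 0.92 ± 0.16 SE (adjusted p = 7.01e-05), whereas Il12rb2, a chain of the IL12 receptor, stood at 69.5 to 82.3 CPM with no call (0.24 ± 0.26 SE, adjusted p = 0.531). Ikzf3, the factor Aiolos, rose by 1.25 ± 0.21 SE (adjusted p = 6.24e-05) and Irf8 by 0.75 ± 0.16 SE (adjusted p = 0.000779).

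The aryl hydrocarbon receptor (AHR), a sensor of small aromatic compounds, and its best-known targets rose together. Of 10 measured genes 6 rose and 0 fell by edgeR; 0 fell at an unadjusted p under 0.05, and 0 by DESeq2 or limma-voom. The receptor gene Ahr (ENSMUSG00000019256, GRCm38 chromosome 12, 35497974 to 35535038) stood at 2.06, 1.88, 1.85, 2.16 and 1.5 CPM without cytokine and 7.85, 15.5, 31.5, 11.2 and 36.1 CPM with TGFB1, 3.43 ± 0.36 SE, adjusted p = 2.75e-08. Libraries 70 and 74 were highest and 63 lowest, and all were above those without cytokine. The AHR-induced monooxygenases were near silent before: Cyp1b1 (ENSMUSG00000024087, GRCm38 chromosome 17, 79701537 to 79715061) stood at 0.0894, 0.104, 0, 0.108 and 0.0999 CPM without cytokine and 8.11, 11.2, 11.5, 6.35 and 15.2 CPM with TGFB1 (6.77 ± 0.68 SE, adjusted p = 1.28e-08), and Cyp1a1 at 0.291 to 6.51 CPM (4.50 ± 0.46 SE, adjusted p = 1.64e-08). The feedback repressor Ahrr rose from 0.685 to 11.5 CPM and Tiparp, another brake on AHR, by 1.06 ± 0.11 SE (adjusted p = 2.30e-08). Arnt, the constant partner of AHR, stood at 57.5 to 61 CPM with no call. The letters GCGTG, or CACGC on the other strand, are the core of the AHR response element. They were found in the 250 bases before 7 of the 8 genes of this list that the promoter table holds, against 28.2% of all promoters. Copies numbered 2 or more in 2 of the 8, against 8.63%. Here too genes are set beside shares over promoters. The windows of the 3 AHR targets with the largest rises are printed to show how the core lies in them, in capitals.
Cyp1b1 (chr17:79715062-79715311, minus strand): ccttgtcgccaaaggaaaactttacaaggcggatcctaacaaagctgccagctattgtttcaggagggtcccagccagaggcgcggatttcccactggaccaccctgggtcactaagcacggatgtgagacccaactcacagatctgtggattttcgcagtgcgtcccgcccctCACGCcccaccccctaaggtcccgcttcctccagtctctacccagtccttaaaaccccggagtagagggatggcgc
Cyp1a1 (chr9:57697363-57697612, plus strand): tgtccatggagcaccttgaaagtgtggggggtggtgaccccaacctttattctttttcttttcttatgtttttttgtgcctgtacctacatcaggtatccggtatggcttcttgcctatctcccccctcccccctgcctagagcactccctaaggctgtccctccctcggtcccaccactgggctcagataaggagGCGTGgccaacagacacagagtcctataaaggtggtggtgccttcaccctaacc
Ahrr (chr13:74292332-74292581, minus strand): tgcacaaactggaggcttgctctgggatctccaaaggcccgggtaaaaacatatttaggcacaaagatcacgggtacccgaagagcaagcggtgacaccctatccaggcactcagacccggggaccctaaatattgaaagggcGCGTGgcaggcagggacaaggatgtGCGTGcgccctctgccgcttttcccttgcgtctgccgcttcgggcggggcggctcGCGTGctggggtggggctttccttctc
These windows held 1, 1 and 3 copies in that order. Tiparp, which rose, and Arnt, which was not called, held 1 each.

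Surface enzymes that turn ATP into adenosine rose. Nt5e, CD73, which makes adenosine from AMP (ENSMUSG00000032420, GRCm38 chromosome 9, 88327197 to 88372092), stood at 7.24, 8.87, 8.05, 5.83 and 8.79 CPM without cytokine and 235, 240.0, 514, 309 and 319 CPM with TGFB1, 5.38 ± 0.32 SE, adjusted p = 9.08e-13. It was at least 235 CPM with TGFB1 and at most 8.87 CPM without. Entpd1, CD39, which supplies AMP, was lower in level, at 1.08 to 2.74 CPM, and rose by 1.37 ± 0.38 SE (adjusted p = 0.00874). The adenosine receptor Adora2a fell by 0.88 ± 0.18 SE (adjusted p = 0.000545), and Ada, which breaks adenosine down, rose by 0.73. In the whole list of 13 measured genes 5 rose and 3 fell. Of 20 inhibitory receptors and ligands 5 rose and 7 fell: Cd96 rose by 1.61 ± 0.19 SE (adjusted p = 2.13e-07) and Lag3 by 0.50, while the ligand gene Pdcd1lg2 fell by 1.47.

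Of 36 measured genes of costimulation and activation 11 fell, 3 rose and 22 were not called, with a median of -0.19. The immediate early factors Egr3 and Egr2 fell by 1.56 ± 0.31 SE (adjusted p = 0.000377) and 1.11 ± 0.24 SE (adjusted p = 0.000968), and the costimulatory receptor Tnfrsf4, OX40, by 1.13. Jun rose by 1.49 ± 0.27 SE (adjusted p = 0.000172) and Cd44, a marker of antigen experience, by 0.78. Cd86 averaged 4.89 to 4.32 CPM and was not called. Of 27 cytokine receptors 7 rose and 5 fell; Il15ra fell by 1.57 ± 0.19 SE (adjusted p = 4.98e-07) and Ifngr2, a chain of the interferon gamma receptor, rose by 1.58 ± 0.24 SE (adjusted p = 1.12e-05). Csf2rb and Il1rl1, which fell from 5.42 to 0.97 CPM and 2.99 to 0.664 CPM, are expressed by basophils and mast cells and moved with the genes of those cells.

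Interferon genes did not move as a block. Of 34 measured genes of the interferon gamma response 14 rose and 4 fell, and 15 and 7 with the animal as a block. Among the rises were MHC class I genes. H2-K1 stood at 1616, 1479, 1531, 1732 and 1564 CPM without cytokine and 2437, 2078, 2323, 2696 and 2158 CPM with TGFB1 (0.56 ± 0.08 SE, adjusted p = 2.57e-06), and B2m, its light chain, rose by 0.52. The immunity-related GTPase gene Iigp1 rose from 95.2 to 224 CPM (adjusted p = 8.81e-05). The guanylate-binding gene Gbp7 fell by 1.34 ± 0.25 SE (adjusted p = 0.000171). H2-K1, H2-D1, Iigp1 and Gbp7 belong to families of near copies, among which the authors' counting could split reads. Of 28 measured type I interferon genes 3 rose and 5 fell, 4 and 8 with the block, and the median was -0.29. Ifi214 fell by 3.18 ± 0.41 SE (adjusted p = 9.20e-07) and the RNA sensor Ifih1 by 1.65 ± 0.23 SE (adjusted p = 4.51e-06). Irf7, the main amplifier of this response, stood at 1.79, 0.626, 0.924, 2.38 and 1.4 CPM without cytokine and 1.2, 0.324, 0.831, 3.69 and 0.368 CPM with TGFB1, with no call (-0.14 ± 0.59 SE, adjusted p = 0.892; -1.12 without the TGFB1 library of animal 73). Cd74, the invariant chain of MHC class II, rose from 21.4, 21.2, 26.3, 26.5 and 27.7 CPM to 157, 137, 132, 163 and 169 CPM (2.63 ± 0.25 SE, adjusted p = 7.76e-09), while H2-Aa and H2-Ab1, the class II chains themselves, were at 1.08 to 1.27 CPM and 2.09 to 1.49 CPM, neither called.

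Of 31 measured genes of glycolysis and hypoxia 19 fell, 2 of them by more than 2-fold, 1 rose and 11 were not called, with a median of -0.33. The summed level of the list was 16979 to 17393 CPM without cytokine and 13257 to 14015 CPM with TGFB1. Pkm, pyruvate kinase, stood at 2485, 2489, 2428, 2375 and 2372 CPM without cytokine and 1782, 1787, 1717, 1764 and 1572 CPM with TGFB1 and fell by 0.49 ± 0.10 SE (adjusted p = 0.000369). The lactate exporter Slc16a3 fell by 1.60 ± 0.26 SE (adjusted p = 2.68e-05), the kinase Pfkfb3 by 0.66 and Pfkl, phosphofructokinase, by 0.71. The exception was the oxygen sensor Egln3, which rose by 1.89 ± 0.35 SE (adjusted p = 0.000189). Gapdh averaged 1397 to 1247 CPM with groups that did not overlap. In the fit over all 30 libraries it was not called without the block (adjusted p = 0.0799). With the animal as a block over these libraries it was (adjusted p = 0.0468). Fitted on the KO libraries alone, Gapdh was also called without a block (adjusted p = 0.0119).

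Other housekeeping programmes moved less. Of 32 genes of oxidative phosphorylation 4 fell and 0 rose by edgeR, with a median of -0.07; 1 rose at an unadjusted p under 0.05 and 0 by DESeq2 or limma-voom. Cycs, cytochrome c, fell by 0.58 ± 0.11 SE (adjusted p = 0.000165). Of 30 genes of MYC and ribosome biogenesis 4 fell and 0 rose by edgeR, and 11 fell with the animal as a block over all 30 libraries and 17 over the 10 KO libraries; 0 rose at an unadjusted p under 0.05, and 0 by DESeq2 or limma-voom. Ncl, nucleolin, fell by 0.50 ± 0.12 SE (adjusted p = 0.0032) and Odc1, which starts polyamine synthesis, by 0.57. Myc averaged 263 to 202 CPM, lower in each of the 5 animals, without a call (-0.38 ± 0.19 SE, adjusted p = 0.145). Fitted on the 10 KO libraries alone, it was called with the animal as a block (adjusted p = 0.00678) and without it (adjusted p = 0.0236). In each of the lists of DNA replication and of mitosis 2 of 30 fell and 0 rose by edgeR. The replication list summed to 7556 to 7954 CPM without cytokine and 7196 to 7521 CPM with TGFB1, without overlap. For the mitosis list the sums overlapped, at 4341 to 4842 CPM and 4346 to 5048 CPM. At an unadjusted p under 0.05, 1 replication gene and 7 mitosis genes rose; DESeq2 called 0 and 1, and limma-voom 0 in each. Fitted on the 10 KO libraries alone, edgeR called 1 and 7 rises, and with the animal as a block over all 30 libraries 0 and 1. Mcm3, a subunit of the replicative helicase, fell by 0.29 ± 0.06 SE (adjusted p = 0.000955) and Tk1, thymidine kinase, by 0.45, and of the mitotic genes Aurkb fell by 0.21 and Cdca8 by 0.24. Cdkn1b, the cycle inhibitor p27, rose by 0.80 ± 0.21 SE (adjusted p = 0.00662) and Btg1, another brake on division, by 0.30. Mki67, the proliferation marker Ki-67, averaged 43.5 to 73.1 CPM, higher in each of the 5 animals, with overlap and no call (0.75 ± 0.34 SE, adjusted p = 0.113). On the 10 KO libraries alone it was called with the animal as a block (adjusted p = 0.00169) and without it (adjusted p = 0.0336). Of 32 cholesterol genes 6 rose and 1 fell. Tm7sf2 rose by 0.76 ± 0.15 SE (adjusted p = 0.000383) and Scd2, a desaturase, by 0.52, Acaca, which starts fatty acid synthesis, fell by 0.59, while Sqle stood at 308 to 303 CPM with no call. Of 28 genes of the amino acid response 2 rose and 2 fell, where Nupr1 rose by 2.84 ± 0.32 SE (adjusted p = 1.37e-07), Aars fell by 0.39, and Asns averaged 353 to 319 CPM without a call.

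**Figure D4:**
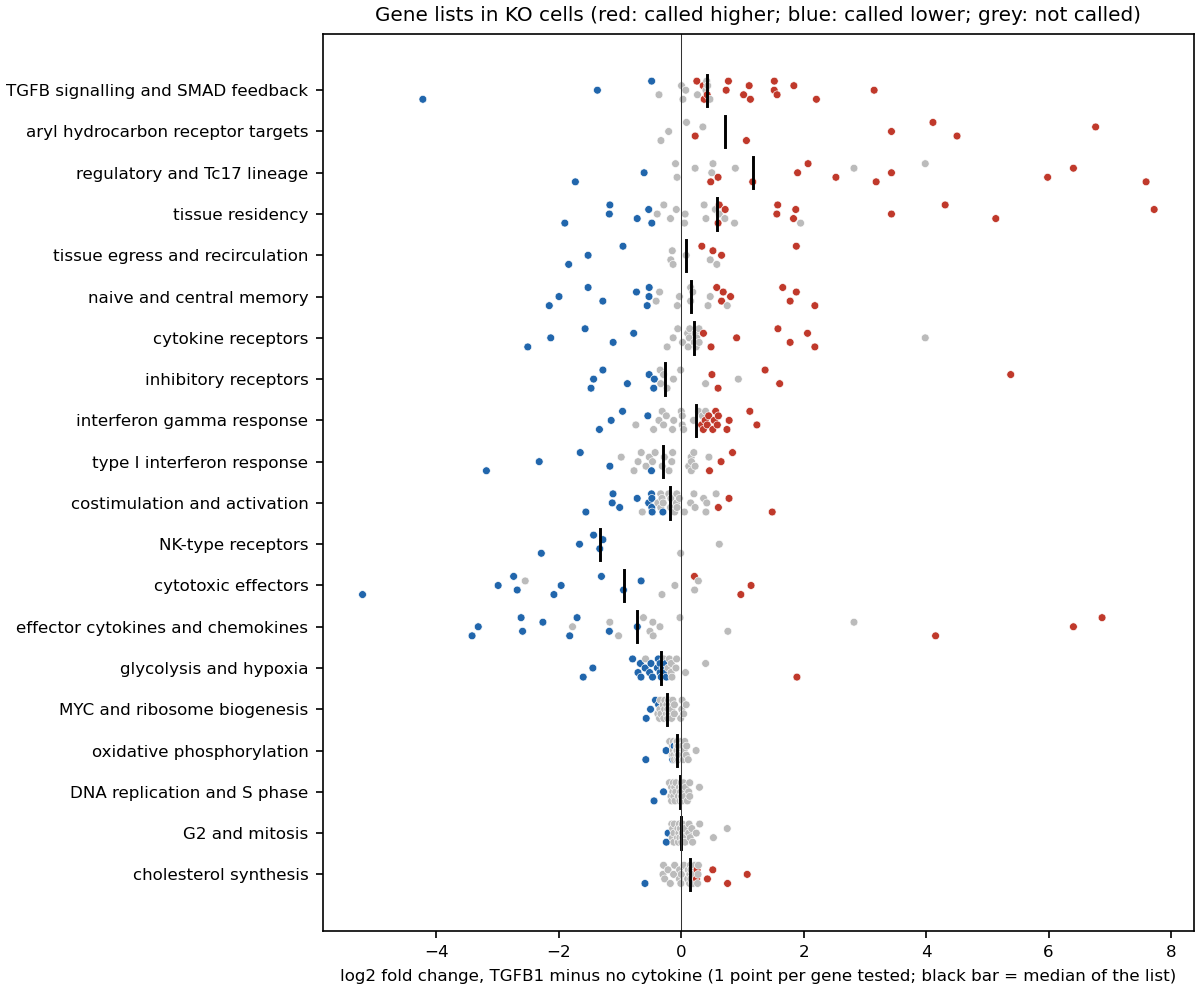
Log2 fold change (TGFB1 minus no cytokine) of each measured gene in 20 lists in KO cells; red and blue are genes called higher and lower, and the black bar is the median of the list. Regulatory and AHR genes lie furthest to the right (medians 1.17 and 0.71), NK-type and cytotoxic genes to the left (-1.33 and -0.94), and replication and mitosis genes near 0.

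Genes of the cell's frame and of its survival changed too. Vim, vimentin (ENSMUSG00000026728, GRCm38 chromosome 2, 13573927 to 13582826), stood at 626, 546, 515, 659 and 515 CPM without cytokine and 1596, 1857, 2091, 1657 and 2095 CPM with TGFB1 and rose by 1.70 ± 0.13 SE (adjusted p = 9.05e-11), with every library with TGFB1 above every other. The galectins Lgals3 and Lgals1 rose from 125 to 330.2 CPM and from 935 to 1482 CPM, and the laminin receptor chain Itga3 fell by 1.94 ± 0.28 SE (adjusted p = 5.03e-06). In the list of 16 measured genes 6 rose and 4 fell. Of 20 genes of the BCL2 family and death receptors 1 rose and 4 fell: the death activator Bmf rose by 2.30 ± 0.29 SE (adjusted p = 6.90e-07) and the pore former Bak1 fell by 0.71 ± 0.08 SE (adjusted p = 1.43e-07). The remaining large falls included Gucy1a1, a subunit of the nitric oxide receptor, from 19.8, 28.9, 23.4, 24.5 and 27.6 CPM to 2.66, 2.05, 1.87, 2.37 and 0.645 CPM (-3.71 ± 0.32 SE, adjusted p = 9.40e-10), the calcium sensor Ncald from 8.85 to 0.707 CPM, and Utf1, Bspry and the non-coding gene Gm2762, at 5.11 to 0.387 CPM, 17.4 to 2.03 CPM and 9.36 to 0.736 CPM.

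Whether KO cells answered TGFB1 differently from WT cells was tested as the difference between the responses, which share no library. It was called for 387 genes, 3.30% of those tested, 189 of them higher and 198 lower in KO. In 270 of these the fitted responses pointed in opposite directions, in 78 they pointed the same way and were larger in KO, and in 39 smaller. The response itself was called in KO only for 143 of the 387, in WT only for 187, in both for 53 and in neither for 4. Most of the 270 opposite signs therefore include a response that was not called. The count of 387 rests on single libraries. Without 1 library with TGFB1 it was 2155 (WT 62), 71 (WT 67), 91 (WT 71), 665 (WT 72) and 58 (WT 75). For KO it was 293 (KO 63), 93 (KO 68), 307 (KO 70), 885 (KO 73) and 77 (KO 74). Without 1 library without cytokine it was 233 (WT 62), 203 (WT 67), 434 (WT 71), 144 (WT 72) and 247 (WT 75). For KO it was 235 (KO 63), 72 (KO 68), 117 (KO 70), 434 (KO 73) and 111 (KO 74). With both libraries of WT 75 out it was 11. Of the 8 differences with the smallest p, 7 were called in every alternative.

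Rragd, a GTPase of amino acid sensing (ENSMUSG00000028278, GRCm38 chromosome 4, 32983037 to 33022180), went from 4.38, 2.09, 3.83, 2.81 and 2.4 CPM to 20.6, 31.8, 22.6, 15.3 and 43.7 CPM in KO and from 3.23, 4.01, 4, 3.83 and 3.75 CPM to 12.8, 6.72, 7.15, 7.3 and 4.8 CPM in WT (animals 62, 67, 71, 72 and 75). The response was 3.11 in KO and 1.03 in WT, a difference of 2.08 ± 0.37 SE (adjusted p = 0.0114). Pros1, the anticoagulant protein S, went from 14.6, 13.9, 15, 12 and 12.3 CPM to 23.9, 40.6, 27.6, 21.6 and 47.7 CPM in KO and from 17.8, 18.9, 17.4, 19.6 and 27.6 CPM to 21.3, 6.25, 9.71, 15.4 and 14.8 CPM in WT. It was higher with TGFB1 in all 5 KO animals, and the difference was 1.84 ± 0.32 (adjusted p = 0.0114). Gpr183 went from 13.1, 15, 10.6, 9.07 and 18 CPM to 4.12, 3.24, 4.05, 6.06 and 1.01 CPM in KO and from 12.3, 10.3, 8.95, 8.61 and 9.31 CPM to 5.6, 19, 22.7, 13.7 and 16.6 CPM in WT, a difference of -2.49 ± 0.44 (adjusted p = 0.0114). The copper transporter gene Slc31a2 differed by 1.29, N4bp1 by 0.71, Exoc3 by 0.46, Fndc3a by 0.69 and Smim8 by -0.90, each with adjusted p = 0.0114. Fndc3a was the exception to the stability of these 8, with adjusted p = 0.0653 without both libraries of WT animal 75. Of the 12 largest rises in KO 1 differed between the genotypes, Tshb (2.66, adjusted p = 0.0455), and of the 12 largest falls 3, Gucy1a1 (-1.58, adjusted p = 0.0456), Ncald (-2.37, adjusted p = 0.0476) and Ifi214 (-2.47, adjusted p = 0.0173). Without both libraries of WT 75 none of these 4 was called (adjusted p = 0.141, 0.118, 0.126 and 0.0776). These genes were chosen by their size in KO, which enters the difference. For Gzmb, Itgae, Nt5e, Pmepa1 and Foxp3, described above, the adjusted p of the difference was 0.323, 0.667, 0.941, 0.16 and 0.128, which does not show that the responses were equal. With TGFB1, WT 62, the male WT animal, stood at 167, 28.9, 99.1, 37 and 2.02 CPM for these genes in that order. The other WT libraries with TGFB1 ran from 13.9 to 41.5, 152 to 268, 266 to 406, 42.6 to 46.5 and 1.73 to 5.03 CPM. The part of sex in this was not tested.

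Of the pathway lists, cholesterol synthesis held the most differences, 14 of 32 measured genes against 3.30% of all genes. Its median log2 fold change was 0.14 in KO and -0.55 in WT. The summed level of the list was 8346, 8146, 8379, 8128 and 8418 CPM without cytokine and 7885, 9409, 9085, 6871 and 9935 CPM with TGFB1 in KO. In WT it was 8640.4, 8232, 7089, 7546 and 8429.5 CPM and 7246, 4913, 5289, 6741 and 4777 CPM, lower with TGFB1 in each animal, whereas KO animals went either way. Sqle, squalene epoxidase, responded by -0.03 in KO and -0.76 in WT (difference 0.73, adjusted p = 0.0265), and Mvd, which makes isoprenoid precursors, by 0.43 and -0.50 (difference 0.93, adjusted p = 0.0159). The number of genes called in this list ran from 0 without both libraries of WT 75 to 27 without the TGFB1 library of WT 62.

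Differences were also called for genes described above. Id3 fell by 2.16 in KO against a WT response of -0.30 (difference -1.86, adjusted p = 0.0126), and Ccl5 by 2.62 against -0.04 (difference -2.58, adjusted p = 0.0198). Il2ra, at 0.23 in KO against -1.02 in WT, differed with adjusted p = 0.0416. Without both libraries of WT 75 the adjusted p of these 3 differences was 0.0653, 0.089 and 0.143, and none was called.

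**Figure D5:**
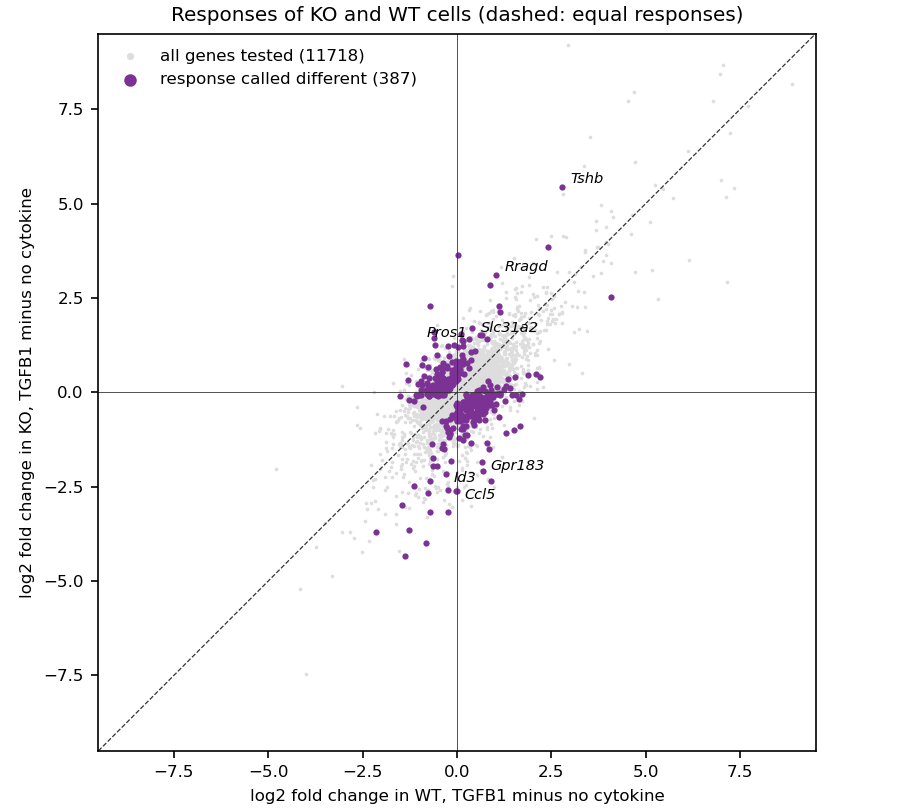
Log2 fold change with TGFB1 in KO (vertical) against WT cells (horizontal) for 11718 genes; purple points are the 387 genes whose responses were called different, and the dashed line marks equal responses. Purple points lie on both sides of the dashed line, with Rragd and Pros1 above it and Gpr183, Id3 and Ccl5 below it.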

How the data were processed

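The deposited table gives whole-number read counts per gene for all 30 libraries. STAR, the GRCm38 build, Trim Galore, FastQC and DESeq2 1.24.0 are named in the submitters' processing notes. Which counter, strand setting and annotation made the counts is not given in the sources used here. Libraries were made with a directional kit after poly(A) selection, per the labels' protocols. Because reads are not molecules, intervals and floors cover counting error only.

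Genes were tested with the quasi-likelihood test of edgeR 4.0.16 (R 4.3.3) on the deposited counts, two-sided, with 1 mean per group over all 30 libraries (6 groups, 24 residual degrees of freedom), TMM factors and filterByExpr at a minimum count of 10, which kept 11718 of 55573 genes and 99.88% of counts. A call is an adjusted p under 0.05. SE was computed from the F statistic. The fit was tested on simulated data. Coordinates are from GENCODE vM21 (GRCm38) by gene ID. Itgae overlaps Haspin there, Il12rb2 Serbp1, Gpr183 Ubac2 and Acvr2a Orc4, so reads of these pairs may not be told apart. Between replicates the chi-square per degree of freedom was 2.56 to 31.1, so none repeated another.

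Same-numbered KO libraries had correlations of their deviations of 0.372, 0.186, 0.102, 0.335 and 0.198 for animals 63, 68, 70, 73 and 74. In 63, 68, 73 and 74 the library without cytokine correlated best with the TGFB1 library of its own number. In 70 it did not, so the numbers, which come from the titles, are not shown to pair the libraries of every KO animal.

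Named are the measured genes of a fixed list of key genes, the 12 largest rises and falls with groups apart and a mean of 4 CPM or more in the higher one, up to 6 called members with the smallest p per list, the 6 largest near-silent rises and falls, the 8 differences with the smallest p, and promoters of the TGFB list with repeated SMAD letters. Some genes that the rule names are not reported here. Members and lists were chosen with earlier results of these data known. Arnt, Ccdc22, Cd4, Cd8a, Cpox, Csf2rb, Ctsw, Epcam, H2-Aa, H2-Ab1, Ighd, Ighm, Igkc, Il1a, Il1rl1, Kit, Mcpt8, Ncr1, Klrb1c, Klra4, Klra8, Col1a1, Col1a2, Col3a1, Pecam1, Srgn, Tspan2 and Zbtb7b fall outside this rule and were named after their values were seen. Alternatives were DESeq2 1.42.0, limma-voom (limma 3.58.1), other size factors, filters, libraries and a replicate block. Libraries with IL12 entered the fit but no comparison.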

Additional observations from a re-analysis of the deposited data

Results flagged for a closer look

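A library was far from the other 4 of its group (Dixon's test at the 95% level, ratio above 0.71) in 13 of 344 groups of 5, 3.78%; chance flags about 1 in 20 groups. Among libraries without cytokine, the highest value stood apart for Ccl20 in animal 74 (0.0999 CPM, next 0), Cd101 in animal 63 (5.36 CPM, next 3.6) and Gpr15 in animal 73 (0.864 CPM, next 0.313). Among libraries without cytokine, the lowest value stood apart for Cyp1b1 in animal 70 (0 CPM, next 0.0894) and Ncl in animal 73 (1427 CPM, next 1687). Among libraries with TGFB1, the highest value stood apart for Cd4 in animal 73 (2.37 CPM, next 0.532), Cyp1a1 in animal 70 (11.6 CPM, next 6.17), F2 in animal 74 (14.5 CPM, next 6.69), Irf7 in animal 73 (3.69 CPM, next 1.2), Pfkfb3 in animal 68 (29.6 CPM, next 24.3), Prf1 in animal 68 (26.3 CPM, next 17.6), Usp15 in animal 74 (120.2 CPM, next 107) and Utf1 in animal 68 (1.08 CPM, next 0.312).

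The response to TGFB1 differed between KO and WT by the test of the difference itself (edgeR, adjusted p under 0.05) for 31 of the 172 genes named. Over all genes tested the share was 3.30%. The 2 cannot be compared, as 8 of the named genes were chosen by the p of this test and others by their size in KO. Of the 32 differences followed through the alternatives, 25 were lost in at least 1. The log2 response was higher in KO for Exoc3 (0.46), Fndc3a (0.69), Iigp1 (1.47), Il2ra (1.25), Mvd (0.93), N4bp1 (0.71), Nupr1 (1.95), Pros1 (1.84), Rragd (2.08), Scd2 (0.54), Slc31a2 (1.29), Sqle (0.73), Tiparp (0.69), Tm7sf2 (0.79) and Tshb (2.66). It was lower in KO for Adora2a (-1.04), Bak1 (-0.53), Btg1 (-0.53), Ccl5 (-2.58), Gpr183 (-2.49), Gucy1a1 (-1.58), Id3 (-1.86), Ifi214 (-2.47), Itga3 (-1.41), Ncald (-2.37), Rgcc (-0.72), Serpinb6b (-1.33), Serpinb9 (-1.53), Smim8 (-0.90), Tenm4 (-3.16) and Tgif1 (-0.52).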

How the results depend on the processing

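The number of genes called with TGFB1 in KO was 2875 and stayed within 1.5 times of that under each alternative but the test against a minimum fold change of 1.2 (glmTreat), which asks for more and called 1130. Leaving out 1 library gave 2306 to 2902, and leaving out both libraries of animal 73, an alternative chosen after seeing the data, 2275. With the animal as a replicate block the count was 3410 over all 30 libraries and 3980 over the 10 KO libraries. Of 189 named genes with a test, 172 were called, 148 of these in every alternative run, and no called value changed sign. The block over all 30 libraries ended 1 call (Ndufv1) and added those of Gzma, Tnf and Gapdh; beside the list counts given with it, it changed no other call among the named genes. The block over the 10 KO libraries added those of Tnf, Gapdh, Myc, Mki67 and Tgfbr2. Of these, Gapdh, Myc and Mki67 were also called on the 10 KO libraries without a block.

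The difference between the genotypes, 387 genes, moved far more. It was 776 with DESeq2, 1073 with the replicate block and 1250 in female animals, and leaving out 1 library gave 58 to 2155. Chosen after seeing the data, leaving out both libraries of WT 62 gave 1728, of WT 75 gave 11 and of KO 73 gave 803. The cause was not tested. With limma-voom 252 genes were higher and 168 lower in KO, against 189 and 198. WT animal 67 had a correlation of 0.099 between its libraries, so the numbers are not shown to pair the WT libraries. Of the 32 named differences 7 were called in every alternative. Counts of genes with few reads rest on floors of 3 counts over a group.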
